A study of Homo sapiens with 15 samples.

Results

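The baseline transcriptome of HepG2 cells that had not been transfected was described from 3 RNA-sequencing libraries, the untransfected controls among 15 libraries in all. They are the 3 count columns that the labels tie to untransfected control cells, a rule that uses no measured value, and no other library enters any value given here. HepG2 is an established human line derived from a liver tumour. The series asks how chemical cloaking of a transfected mRNA bears on the transcriptome, and the untransfected cells are its control group. The labels give the genotype of the cells as WT and call the 3 replicates biological, without saying whether they came from separate passages or days. Spread is therefore the spread between these samples. The cells were grown in DMEM with 10% FBS at 5% CO2 and 37 °C and were lysed at the 48 h time point of the experiment. RNA had to reach an integrity number of 7.0, and poly(A)-selected, strand-specific libraries were read as 150 bp pairs on an Illumina NovaSeq instrument.

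The libraries held 73011663, 76022748 and 76476960 counts in replicates 1, 2 and 3, and every list of 3 values below follows that order. Levels are CPM, a gene's count scaled to the library total (counts per 1000000). Longer transcripts collect more reads, so which of several genes stood higher is read from CPM per kilobase of the main annotated transcript. Plain CPM shows a gene's level in each library and whether it reached a limit. The length used matters too, and where counting per kilobase of coding sequence changes the gene named first in a list or moves a ratio by over 1.5 times, this is said beside the value. A gene was called detected at a mean of 1 CPM or more. This held for 13763 of the 41412 rows of the matrix (33.2%) and for 12719 of 19400 protein-coding rows (65.6%), and the protein-coding share is the background for the gene lists below. A count of 0 allows up to 3 counts, which is 0.0392 to 0.0411 CPM here, counting error only. Of all rows, 17672 had no count in any of the 3 libraries, and the 134 rows at 1000 CPM or more held 30.5% of the counts.

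Liver cells secrete most plasma proteins, assemble lipoproteins, make bile acids and glucose, dispose of ammonia and oxidise drugs, and a network of transcription factors led by HNF4A, the FOXA proteins and the C/EBP proteins holds these genes active. Liver tumour lines keep part of this work, re-express genes of the fetal liver such as AFP and IGF2, and divide. Cells also carry sensors of foreign RNA and DNA, which signal through adaptors such as MAVS to interferons, and interferons act through STAT proteins on genes whose promoters hold the interferon-stimulated response element. In bulk RNA, fewer cells that express a gene and less RNA per cell cannot be told apart.

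Promoter sequences of genes from the liver programme are printed because ALB and AFP, neighbours on chromosome 4, encode serum albumin and its fetal counterpart, and FGA carries the same motif on the other strand. They are the 150 bases before the RefSeq start site (table for GRCh38.p14), read 5′ to 3′ on the gene's strand: ALB at chr4:73404137-73404286, plus strand, AFP at chr4:73436071-73436220, plus strand and FGA at chr4:154590743-154590892, minus strand. Capitals mark GTTAAT, the core of the site bound by HNF1 factors, on either strand (ATTAAC is the reverse strand form), and in AFP also TATAAA, the TATA box.
ALB: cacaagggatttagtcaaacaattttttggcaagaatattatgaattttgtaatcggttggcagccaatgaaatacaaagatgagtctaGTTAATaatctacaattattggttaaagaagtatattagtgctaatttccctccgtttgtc
AFP: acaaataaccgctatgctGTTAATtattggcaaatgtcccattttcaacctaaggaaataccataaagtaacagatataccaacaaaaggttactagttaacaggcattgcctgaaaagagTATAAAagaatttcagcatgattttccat
FGA: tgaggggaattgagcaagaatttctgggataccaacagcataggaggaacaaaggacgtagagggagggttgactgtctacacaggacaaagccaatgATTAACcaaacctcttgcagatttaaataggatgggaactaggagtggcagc
In ALB the motif began 61 bases before the start site, in FGA 52 bases and in AFP 132 bases, and the TATA box of AFP began 29 bases before the start. GTTAAT on either strand, searched from 250 bases before to 50 after the start, was present in 16 of 69 promoters of secreted liver proteins found in the table (23.2%). The share over all 27305 promoters of that length was 6.89%, and over 10273 protein-coding genes detected in these cells 3.56%. It was found in 0 of 36 ribosomal protein promoters and 0 of 22 promoters of proliferation genes. Among interferon-stimulated genes 4 of 34 promoters held it (11.8%), and among liver transcription factors 1 of 17 (5.88%). Within the secreted liver proteins the share did not follow the level: 6 of 25 promoters at 100 CPM or more (24%), 8 of 34 from 1 to 100 CPM (23.5%) and 2 of 10 below 1 CPM (20%). The 150 bases before the start of AHSG and of SERPINA1 held neither GTTAAT nor TATAAA, and TTR is not in the table.

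For the innate programme the promoters of 4 interferon-stimulated genes are printed, 3 that stood at 10 CPM or more in these untransfected cells (IFITM3, BST2 and ISG15) and IFIT1 that stood below it, since all carry the same motif. The windows are IFITM3 at chr11:320861-321010, minus strand, BST2 at chr19:17405631-17405780, minus strand, ISG15 at chr1:1013347-1013496, plus strand and IFIT1 at chr10:89392473-89392622, plus strand. Capitals mark the core of the interferon-stimulated response element, searched as GAAA, any 2 bases and GAAA on either strand. Matches that overlap run together.
IFITM3: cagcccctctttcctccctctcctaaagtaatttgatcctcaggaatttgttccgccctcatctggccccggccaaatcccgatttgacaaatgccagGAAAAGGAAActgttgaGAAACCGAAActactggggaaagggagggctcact
BST2: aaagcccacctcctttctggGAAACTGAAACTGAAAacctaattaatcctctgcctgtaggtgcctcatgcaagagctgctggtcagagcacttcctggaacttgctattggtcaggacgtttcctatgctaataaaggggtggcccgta
ISG15: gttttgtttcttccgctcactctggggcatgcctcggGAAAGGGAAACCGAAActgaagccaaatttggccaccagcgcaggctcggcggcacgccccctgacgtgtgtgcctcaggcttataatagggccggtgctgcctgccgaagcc
IFIT1: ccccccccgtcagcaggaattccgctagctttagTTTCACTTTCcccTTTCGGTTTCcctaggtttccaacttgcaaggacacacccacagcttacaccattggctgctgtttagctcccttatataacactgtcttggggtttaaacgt
In each of the 4 windows the motif matched at 2 places, beginning 52 and 35 bases before the start in IFITM3, 130 and 124 in BST2, 113 and 107 in ISG15, and 116 and 103 in IFIT1. The 150 bases before the start of RSAD2, which had no count in these cells, held no match. Of 34 promoters of interferon-stimulated genes in the table, 26 held the motif (76.5%), beside 3.65% of all 27305 promoters. The motif stood in 10 of 12 promoters of these genes at 10 CPM or more (83.3%), 9 of 12 from 1 to 10 CPM (75.0%) and 7 of 10 below 1 CPM (70.0%). A match of these letters is a description of the sequence and not of binding.

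The liver label was checked first against its markers. ALB, serum albumin (ENSG00000163631, chr4:73397114-73421412, plus strand, GRCh38), reached 6078, 6580 and 7247 CPM. AFP, alpha-fetoprotein (ENSG00000081051, chr4:73431138-73456174, plus strand), stood at 284, 315 and 287 CPM. APOB, the structural protein of very low density lipoprotein (ENSG00000084674, chr2:21001429-21044073, minus strand), gave 2186, 2415 and 2487 CPM, and HNF4A, the nuclear receptor at the head of the liver network (ENSG00000101076, chr20:44355700-44434596, plus strand), 305, 307 and 249 CPM. All 4 were far above 1 CPM in all 3 libraries. Per kilobase, ALB ranked 15 of 19359 genes, APOB 450, AFP 646 and HNF4A 1661, and AFP stood at 0.0407 ± 0.0041 of ALB (SD, n = 3). Of the other markers fixed for this lineage, APOA1 ranked 49 and SERPINA1 66. TTR, transthyretin, an abundant liver product in the body, was the exception at 6.62, 5.87 and 5.51 CPM, rank 6469.

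**Figure D1:**
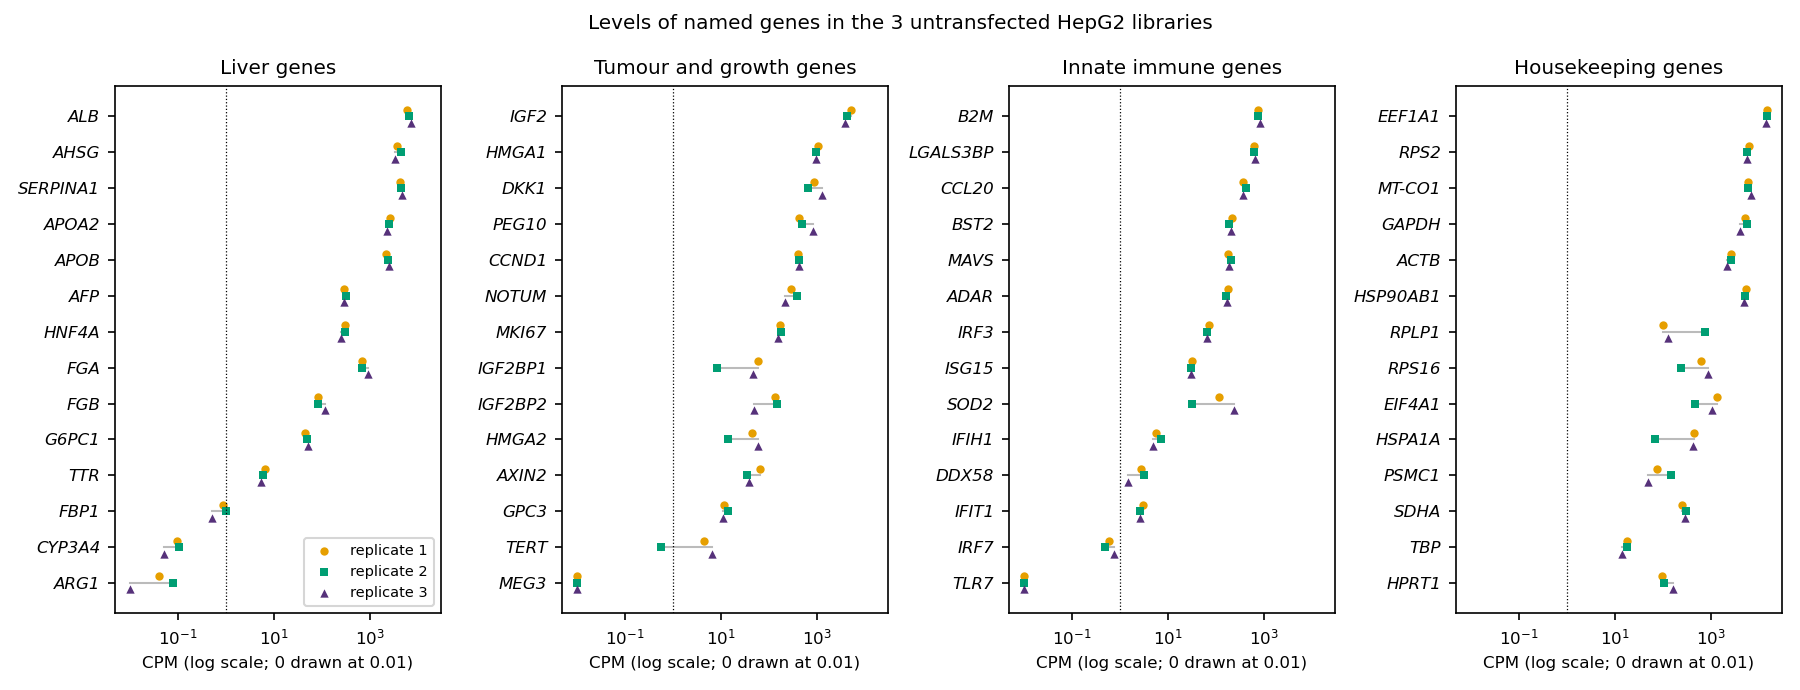
CPM on a log axis (horizontal) of 14 named genes (vertical) in each of 4 programmes, with 1 point per replicate (circle, square and triangle for replicates 1, 2 and 3), a grey bar from lowest to highest, and a dotted line at 1 CPM. Most genes keep their level across replicates, as ALB does between 6078 and 7247 CPM, while IGF2BP1, SOD2, RPLP1, HSPA1A and TERT spread over more than a 6-fold range.

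The liver programme comprised 244 listed genes, of which 192 were detected (78.7%), with a median of 26.8 CPM, and it took 5.33% ± 0.290 of all counts (SD, n = 3). Secreted carriers were its most abundant group: 24 of 28 were detected, and together they held 2.81% ± 0.218 of counts. Per kilobase ALB led with 2932 ± 259, followed by AHSG (fetuin-A, an inhibitor of mineral deposition) with 2246 ± 306, SERPINA1 (the elastase inhibitor alpha-1-antitrypsin) with 1246 ± 59.9, A2M (the protease trap alpha-2-macroglobulin) with 1003 ± 146 and RBP4 (the retinol carrier) with 765 ± 33.3. Replicate ranges of these 5 neighbours did not overlap. By coding length SERPINA1 (3509) stood just above AHSG (3490), and TF took the place of A2M among the first 5. In CPM, AHSG gave 3734, 4413 and 3382, and SERPINA1 gave 4170, 4447 and 4586.

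Of 21 carriers at 10 CPM or more, 4 differed at least 2-fold between replicates (19.05%), beside 10.5% of all 8907 genes at that level. AMBP, the precursor of alpha-1-microglobulin and bikunin, had 702, 157 and 746 CPM (4.75-fold) and was low in replicate 2. ITIH2, a heavy chain of the inter-alpha-trypsin inhibitors, had 850, 883 and 239 CPM (3.7-fold) and was low in replicate 3. CP, the copper protein ceruloplasmin, had 26.8, 55.0 and 25.2 CPM (2.18-fold), high in replicate 2, and TF, the iron carrier transferrin, 1694, 3634 and 3487 (2.15-fold), low in replicate 1. The odd library thus differed between these 4 genes.

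The 3 chains of fibrinogen, the clotting protein assembled from equal numbers of each, were present at unequal levels per kilobase: 209 ± 39.9 for FGA, 150 ± 41.0 for FGG and 48.3 ± 10.3 for FGB. In CPM FGA gave 678, 687 and 937, FGG 211, 236 and 346, and FGB 82.2, 85.1 and 119. All 3 chains were highest in replicate 3. Carriers at the other end were GC (the vitamin D carrier), HPX (the haem carrier), ITIH4 and HRG, each below 1 CPM. GC had 0.205, 0.171 and 0.118 CPM.

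Apolipoproteins, the protein coat of lipoprotein particles, were detected for 19 of 22 listed genes. APOA2, a protein of high density lipoprotein, had 2663, 2492 and 2303 CPM and at 5245 ± 379 CPM per kilobase was the highest of all listed liver genes. APOA1, the main protein of that particle, followed with 1516 ± 41.0, APOE, the ligand of remnant receptors, with 1023 ± 27.7, and APOC1 with 577 ± 65.4 overlapped APOH with 572 ± 26.1. APOC4 and LCAT, which esterifies cholesterol in plasma, were below 1 CPM. MTTP, which loads lipid onto APOB, had 0.986, 1.30 and 2.12 CPM, which is 0.359 ± 0.143 CPM per kilobase beside 167 ± 11.2 for APOB.

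Coagulation genes were detected for 14 of 17, complement and acute phase genes for 21 of 28. F2, prothrombin, had 506, 546 and 525 CPM, SERPIND1 (heparin cofactor II) 458, 540 and 455, and TFPI, the inhibitor of the tissue factor pathway, 617, 744 and 1108. F9, the factor missing in haemophilia B, had no count in any library, and PLG (plasminogen) and F13B were below 1 CPM. C3, the central complement protein, reached 1374, 1495 and 1525 CPM, and HAMP, the iron hormone hepcidin, 127, 115 and 184 CPM. The classical acute phase reactant CRP and the terminal complement gene C9 had no count, and SAA1, SAA2, LBP and C6 stayed below 1 CPM. The acute phase list therefore held genes from 0 to over 1000 CPM.

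All 25 listed liver transcription factors were detected, with a median of 29.6 CPM. Per kilobase they ranged from 0.747 ± 0.116 for ONECUT2 to 171 ± 16.7 for NR0B2, the corepressor SHP, ahead of CEBPB at 61.3 ± 1.97. HHEX, RXRA and HNF4A followed at 52.2 ± 4.73, 47.9 ± 1.56 and 44.5 ± 5.09, and each overlapped its neighbour in that order. By coding length HNF4A, whose transcript is long, was second at 202, after NR0B2 at 256. FOXA1, a pioneer factor, spread most, with 17.3, 31.6 and 48.3 CPM (2.80-fold from lowest to highest), while FOXA2 was steady at 52.9, 53.5 and 50.5 CPM. The drug and bile acid receptors NR1I2 (PXR), with 7.82, 7.25 and 6.20 CPM, and NR1I3 (CAR), with 1.60, 1.62 and 1.27 CPM, ranked 20 and 24 of 25 per kilobase.

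Metabolic genes were detected less evenly. Of 24 cytochrome P450 genes and their partners, 13 were detected (54.2%) and 5 had no count in any library, among them CYP2A6, CYP2C18, CYP2C19 and CYP4A11. CYP3A4, the main drug-oxidising P450 of adult liver, had 0.0959, 0.105 and 0.0523 CPM (7, 8 and 4 counts), CYP3A5 had 6.74, 6.05 and 5.58 and the fetal form CYP3A7 1.69, 1.16 and 1.62. Per kilobase CYP3A4 stood at 0.0392 ± 0.0131 and CYP3A5 at 3.56 ± 0.338, and CYP3A5 stood 4.84 ± 1.05 times above CYP3A7. The redox partners that serve these enzymes led the list: POR had 166, 305 and 167 CPM and CYB5A 162, 146 and 151 CPM. Per kilobase they stood at 84.2 ± 31.8 and 46.7 ± 2.49, beside 6.27 ± 0.419 for CYP4F11, the highest P450. By coding length CYB5A (381) stood above POR (104).

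Conjugating enzymes, which add sugar, sulphate or glutathione to drugs and hormones, were detected for 17 of 23 measured genes. UGT1A6 had 499, 527 and 607 CPM, SULT2A1, the sulphotransferase of steroids, 242, 319 and 311, and MGST1 194, 183 and 324. UGT1A6 and UGT1A1 share exons with the rest of the UGT1A locus, so their division of the reads is uncertain. UGT2B15, UGT2B17, SULT1E1, NAT2, GSTM1 and NNMT were below 1 CPM.

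In sterol and bile acid handling, 16 of 24 genes were detected (66.7%). The cholesterol side was present, with SQLE, an enzyme of sterol synthesis, at 150, 133 and 191 CPM. HMGCS1, an early enzyme of the same route, spread 7.10-fold at 23.0, 81.7 and 163 CPM. CYP7A1, the rate-limiting enzyme of bile acid synthesis, had at most 0.118 CPM, and the bile acid carriers SLC10A1 (NTCP), ABCB11 (BSEP), SLCO1B1 and SLCO1B3 had at most 0.211 CPM. CYP27A1, the enzyme of the alternative route, had 96.3, 60.7 and 119 CPM.

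Glucose production genes were detected for 10 of 14. G6PC1, which releases free glucose in the last step of gluconeogenesis, had 44.4, 48.9 and 52.4 CPM and its transporter SLC37A4 83.8, 80.3 and 83.3. FBP1, fructose-1,6-bisphosphatase, had 0.863, 1.00 and 0.510 CPM, and GYS2, the liver glycogen synthase, had no count. The mitochondrial PCK2 stood 25.7 ± 9.59 times above the cytosolic PCK1 per kilobase, and 12.8 times above it by coding length. For a pair of glucose transporters that differ between adult liver and tumours, SLC2A1 had 766, 608 and 161 CPM and SLC2A2, the liver form, at most 1.40 CPM. Per kilobase they stood at 139 ± 85.5 and 0.245 ± 0.165. SLC2A3, a further glucose transporter listed with the glycolysis genes, had a higher mean than both, at 292 ± 89.0 CPM per kilobase.

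Urea cycle and amino acid genes were detected for 18 of 22. CPS1, the entry enzyme of the urea cycle, had 37.0, 41.6 and 34.5 CPM, ASS1 141, 125 and 139, and ASL 56.6, 48.6 and 40.5. OTC, the step between CPS1 and ASS1, and ARG1, the last step, had at most 0.0526 and 0.0789 CPM. HPD, an enzyme of tyrosine breakdown, led the list at 315 ± 36.1 CPM per kilobase (by coding length GLUL, at 386, stood above HPD, at 379), while TDO2 and SDS, enzymes of tryptophan and serine breakdown, were below 1 CPM. Among receptors 16 of 18 were detected, with ASGR1, the asialoglycoprotein receptor used to target drugs to hepatocytes, at 467, 542 and 466 CPM. Its partner ASGR2 had 223, 68.4 and 188 CPM, a 3.27-fold range, and was low in replicate 2.

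The tumour and growth programme comprised 142 genes, of which 132 were detected (93.0%), with a median of 94.2 CPM and 4.33% ± 0.374 of counts. Of 30 oncofetal and hepatoblastoma genes 25 were detected. IGF2, the fetal growth factor (ENSG00000167244, chr11:2129112-2149603, minus strand), reached 5220, 4208 and 3834 CPM. It shares exons with the readthrough gene INS-IGF2, and its per kilobase value depends strongly on which length is used. HMGA1, a chromatin protein of embryonic cells, had 1059, 983 and 961 CPM, and the imprinted PEG10 429, 501 and 850. The imprinted noncoding H19 had 50.7, 68.8 and 52.7 CPM, and MEG3, the maternally expressed gene of the DLK1 domain, had no count while DLK1 itself had 107, 85.8 and 95.7 CPM. GPC3, a surface marker of liver cancer, was modest at 11.6, 14.3 and 11.3 CPM.

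Members of this list spread unequally between replicates. IGF2BP1, which stabilises fetal mRNAs, had 59.3, 8.17 and 47.5 CPM (7.26-fold), ROBO1, an axon guidance receptor, 22.1, 17.7 and 5.09 (4.35-fold), HMGA2 44.1, 13.9 and 59.7 (4.28-fold), and IGF2BP2 134, 150 and 48.2 (3.12-fold). The paralog IGF2BP3 was steady at 36.9, 37.7 and 41.1 CPM, and LIN28B, the inhibitor of let-7 processing, had 19.2, 24.4 and 26.5. IGF2BP1 and HMGA2 were both low in replicate 2, and ROBO1 and IGF2BP2 were low in replicate 3. In all, 6 of 22 genes of this list at 10 CPM or more differed at least 2-fold between replicates (27.3%), beside the 935 of all 8907 genes (10.5%).

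Targets of beta-catenin, the Wnt effector that is mutated in many liver tumours, were detected for 18 of 22 genes. The Wnt antagonists DKK1 and NOTUM led per kilobase with 520 ± 176 and 128 ± 37.2 (by coding length DKK1 was first at 1166, and CCND1 at 475 stood above NOTUM at 201), at 855, 659 and 1276 CPM and 285, 391 and 219 CPM. The feedback genes NKD1 (343, 274 and 323 CPM), RNF43 (85.6, 79.8 and 93.9) and ZNRF3 (67.5, 110 and 77.3), and the stem cell receptor LGR5 (42.3, 32.8 and 50.7), were all above 30 CPM. AXIN2, a standard reporter of the pathway, had 66.1, 35.5 and 38.8 CPM. APCDD1, WIF1, DKK4 and FGF19 were below 1 CPM. CTNNB1 itself had 262, 223 and 174 CPM, and no gene of this list at 10 CPM or more differed 2-fold, although the median CV was 20%.

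All 31 proliferation genes were detected, with a median of 110 CPM. PCNA, the sliding clamp of replication, led at 321 ± 28.5 CPM per kilobase with 429, 402 and 478 CPM, and the proliferation marker MKI67 had 174, 182 and 157 CPM. By coding length BIRC5, an inhibitor of apoptosis made in mitosis, was first at 638, ahead of PCNA at 557. CCND1 was steady at 410, 423 and 429 CPM, and stood 8.48 ± 0.60 times above CCND3 per kilobase and 17.3 times by coding length. CCNE1, a cyclin of the entry into S phase, had 38.9, 28.1 and 11.2 CPM, and CDK1 had 91.5, 111 and 215 CPM. The list as a whole took 0.500% ± 0.00193 of counts.

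Among 31 growth and survival genes 30 were detected. BAX and BCL2L1, a promoter and an inhibitor of apoptosis, led per kilobase at 250 ± 9.09 and 145 ± 4.28. By coding length BCL2L1 was first at 541, followed by CDKN1A at 459 and BAX at 344. BCL2 had 3.40, 3.42 and 2.63 CPM. CDKN1A, an inhibitor of cyclin-dependent kinases, had 198, 231 and 249 CPM. FGFR4, the hepatic receptor for FGF19, had 265, 194 and 210 CPM while its ligand FGF19 was below 1 CPM, and EGFR had 4.16, 4.88 and 2.72 CPM. NFE2L2, the regulator NRF2 of the oxidant response, spread 4.08-fold at 61.6, 165 and 251 CPM. TERT, the catalytic subunit of telomerase, had 4.42, 0.566 and 6.64 CPM, and was low in replicate 2. Its RNA component TERC had 0.0685, 0 and 0 CPM, a value that poly(A) selection limits, since the mature RNA is not polyadenylated.

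Glycolysis and hypoxia genes were all detected (29 of 29), with a median of 350 CPM and 2.43% ± 0.410 of counts. GAPDH, ENO1, ALDOA, TPI1 and LDHA led per kilobase, from 2655 ± 418 for GAPDH to 980 ± 278 for LDHA. This list moved together between replicates: 21 of its 28 genes at 10 CPM or more were highest in replicate 2 and 22 were lowest in replicate 3. Over all 8907 genes at that level, 27.6% were highest in replicate 2 and 42.3% lowest in replicate 3. LDHA, which makes lactate, had 2347, 3050 and 1707 CPM, NDRG1, a hypoxia-induced gene, 363, 944 and 267, CA9, a carbonic anhydrase under HIF control, 106, 150 and 71.3, and VEGFA 134, 206 and 117. SLC2A1 (766, 608 and 161 CPM), SLC16A1 (58.7, 133 and 199) and HIF1A (64.8, 70.6 and 102) did not follow that order.

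The median log2 deviation of the list from each gene's own mean was 0.02 in replicate 1, 0.20 in replicate 2 and -0.24 in replicate 3, relative to all genes at 10 CPM or more. Against genes of like transcript length and GC content (16 bins) it was -0.05, 0.21 and -0.19. The deviation in replicate 2 was as large within the bins, and that in replicate 3 was slightly smaller.

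**Figure D2:**
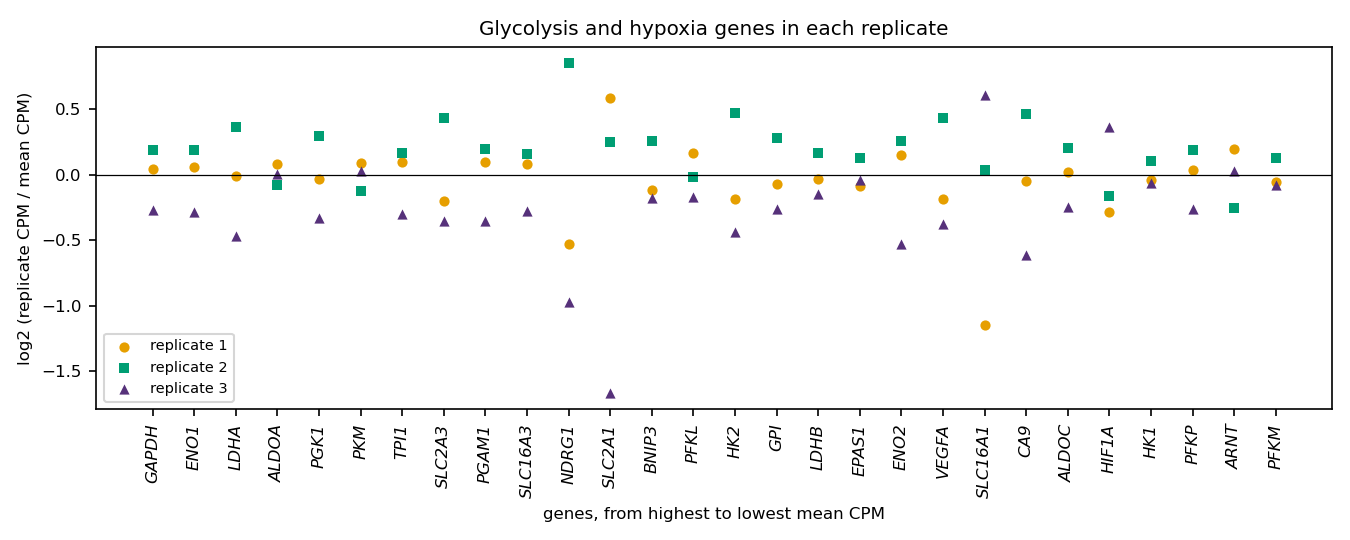
Log2 ratio of each replicate's CPM to the mean of 3 (vertical) for the 28 glycolysis and hypoxia genes at 10 CPM or more (horizontal, from highest to lowest mean), with circle, square and triangle for replicates 1, 2 and 3. Squares lie on top for 21 genes and triangles at the bottom for 22, with SLC2A1 and SLC16A1 among the genes of another order.

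The innate immune programme comprised 173 genes, of which 123 were detected (71.1%), with a median of 6.48 CPM and 1.14% ± 0.00461 of counts. Sensors were the least detected group, at 12 of 27 (44.4%). ADAR, which edits double-stranded RNA, had 181, 164 and 168 CPM, OAS3 and OAS1, which activate RNase L, 62.7, 57.1 and 51.2 and 31.4, 27.4 and 21.5, and EIF2AK2, the kinase PKR, 38.2, 46.9 and 43.1. These 4 were the only sensors at 10 CPM or more. Of the cytosolic RNA helicases, IFIH1 (MDA5) had 5.64, 7.41 and 5.03 CPM and DDX58 (RIG-I) 2.82, 3.17 and 1.49. Per kilobase IFIH1 was at 1.68 ± 0.343 beside 4.26 ± 0.435 for EIF2AK2, and IFIH1 stood 3.11 ± 0.869 times above DDX58.

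Toll-like receptors for nucleic acids were below 1 CPM or had no count. TLR7, TLR8 and TLR9 had no count in any library, which allows up to 0.0411 CPM each, as had TLR4 and the Z-form sensor ZBP1. TLR3, the receptor for double-stranded RNA, had 0.342, 0.855 and 0.562 CPM. CGAS, the DNA sensor, had 0, 0.0526 and 0.0654 CPM, and its adaptor STING1 3.27, 3.28 and 2.92. All 20 adaptors and kinases were detected, with MAVS, the adaptor of both RNA helicases, at 184, 209 and 192 CPM, TBK1 at 11.5, 16.8 and 18.3, and MYD88 at 18.2, 16.6 and 15. RIPK1, below the 10 CPM limit for spread, had 5.00, 15.3 and 1.56 CPM.

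Interferon genes were at or near the floor: IFNA1, IFNA2, IFNG and IFNL1 had no count, and IFNB1, IFNL2 and IFNL3 had counts in replicate 1 alone, at no more than 0.0548 CPM. Receptor chains and signal carriers were present. IFNAR1 had 25.9, 29.2 and 39.3 CPM, IFNAR2 21.4, 25.4 and 27.7, IFNLR1, the chain specific to type III interferon, 8.38, 11.4 and 9.47, and STAT2 26, 25.0 and 22.7. IRF3, the factor downstream of MAVS, had 73.7, 67.3 and 66.2 CPM, and IRF7 (0.603, 0.500 and 0.772) and IRF9 (0.630, 1.43 and 0.915) were close to 1 CPM. In this list 19 of 28 genes were detected.

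Of 43 interferon-stimulated genes 32 were detected (74.4%), 16 of them at 10 CPM or more, and their median was 5.70 CPM. LGALS3BP, a secreted galectin ligand, had 623, 631 and 644 CPM, IFITM3, which blocks virus entry, 229, 191 and 200, BST2 (tetherin) 220, 193 and 210, and ISG15, a ubiquitin-like modifier, 32.1, 29.9 and 30.1. Per kilobase LGALS3BP and IFITM3 overlapped at 263 ± 4.46 and 256 ± 24.2, and by coding length IFITM3 was first at 518, with LGALS3BP at 361. Others of the same class were low: IFIT1 had 3.12, 2.70 and 2.67 CPM, MX1 4.31, 4.67 and 4.07, IFI27 2.78, 2.25 and 2.73, IFIT3 0.438, 0.829 and 0.445, and RSAD2 (viperin) no count. As shown above, IFIT1 carries the response element at 2 places, as ISG15 does, whereas the window of RSAD2 held no match. No gene of this list at 10 CPM or more differed 2-fold between replicates, and the median CV was 8.39%.

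NF-kappaB genes and cytokines were detected for 17 of 31. CCL20, a chemokine for CCR6-bearing lymphocytes, had 370, 431 and 378 CPM and IL32 278, 259 and 261. CXCL8 stood at 3.75, 4.63 and 3.75 CPM, and IL6, IL1A and IL1B had no count. SOD2, a mitochondrial enzyme under NF-kappaB control, had 117, 32.8 and 240 CPM and spread 7.32-fold, the widest of the innate genes at 10 CPM or more. Its exons overlap those of another annotated gene, as do those of 50.4% of all genes at 10 CPM or more. NFKBIA, the inhibitor of NF-kappaB, was steady at 138, 127 and 128 CPM.

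Antigen presentation genes were detected for 23 of 24 and took 0.650% ± 0.0103 of counts, the largest share of the innate lists. Per kilobase CALR led at 1504 ± 86.3, and PDIA3 stood at 309 ± 7.59. Both also belong to the chaperone list, and B2M to the reference genes. GAPDH and PGK1 are in both tumour and housekeeping lists, so the shares of the programmes overlap. B2M, the light chain of class I molecules, had 763, 767 and 853 CPM, and HLA-C 217, 319 and 163, with the reserve that reads of class I genes can be shared. The class II transactivator CIITA had 4.85, 2.37 and 3.6 CPM and HLA-DRA 1.47, 1.83 and 1.74. PSMB8, a subunit of the immunoproteasome, had 34.6, 13.2 and 8.03 CPM. Over the whole innate programme 3 of 75 genes at 10 CPM or more differed 2-fold (4.0%), beside the 10.5% over all genes.

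The housekeeping programme comprised 202 genes, all of them detected, with a median of 431 CPM and 20.1% ± 0.693 of counts. Translation dominated: EEF1A1, the elongation factor that brings tRNA to the ribosome, was the most counted gene of these libraries at 15000, 14930 and 13900 CPM, and EEF2 had 6666, 6543 and 6464, and per kilobase they led their list at 3289 and 2073. The 46 listed ribosomal protein genes took 7.78% ± 0.445 of counts with a median of 1499 CPM, led per kilobase by RPS2 at 5971 ± 232 and RPS18 at 4123 ± 431. The list is a part of the class and leaves out RPS3A and RPL12, at means of 3001 and 2079 CPM. Chaperones were led per kilobase by HSP90AB1 at 1943 ± 69.5, with 5378, 5202 and 5007 CPM. Outside the lists, FTL, the light chain of ferritin, had 6573, 5448 and 6428 CPM, the third highest gene per kilobase at 7004, and FN1, fibronectin, 4913, 7291 and 4459.

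Mitochondrially encoded mRNAs took 2.56% ± 0.172 of counts. MT-CO1, a subunit of cytochrome oxidase, had 5913, 5961 and 6902 CPM. MT-ND4L had 3847, 4108 and 4322 CPM, the highest level per kilobase of all genes (13780), while MT-ND4, which lies on the same transcript and overlaps it (chrM:10760-12137 and chrM:10470-10766, plus strand), had 0.123, 0.145 and 15.1 CPM. A low count of MT-ND4 in this matrix does not show that the RNA is absent, since the rule used to count overlapping genes is not given in the sources used here. Nuclear genes of the respiratory chain (31 of 31 detected, median 190 CPM) were led per kilobase by ATP5F1B at 647 ± 44.3, with 1260, 1210 and 1101 CPM (by coding length CYCS was first at 943), and the 30 proteasome genes had a median of 187 CPM.

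Reference genes commonly used to scale expression were not equally steady. RAB7A had 297, 290 and 284 CPM (1.05-fold) and TBP 18.1, 18.1 and 14.6, while GAPDH had 5117, 5683 and 4135 CPM (1.38-fold), ACTB 2658, 2683 and 2146, and HPRT1 98.4, 106 and 162. Of 29 reference genes 1 had a 2-fold range. Of 201 housekeeping genes at 10 CPM or more, 6 had such a range (2.99%), beside 10.5% of all 8907 genes at that level. Housekeeping genes are mostly high, and the share over all 3653 genes at 50 CPM or more was 7.31%. The widest were RPLP1, a ribosomal stalk protein, at 101, 754 and 132 CPM, HSPA1A, an inducible heat shock protein, at 454, 70.2 and 426, and RPS16 at 629, 246 and 896. RPLP1 was high in replicate 2, whereas HSPA1A, RPS16 and EIF4A1 (1325, 464 and 1064 CPM) were low in it.

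Markers of other cell types were low, with exceptions. Of 58 such genes 24 were detected (41.4%), the median was 0.474 CPM and the share of counts 0.252% ± 0.0290. Of 18 leukocyte markers 6 were detected: their summed level was dominated by LYZ, lysozyme, at 1246, 1387 and 1725 CPM, while the pan-leukocyte gene PTPRC and MS4A1, FCGR3A and MARCO had no count. CD68 had 33.2, 6.04 and 29.3 CPM, lies directly beside EIF4A1 on chromosome 17 and was low in the same replicate. Among 20 fibroblast, stellate and endothelial markers 9 were detected and 3 stood at 10 CPM or more. RELN (reelin) had 104, 459 and 77.5 CPM and ACTA2 14.7, 2.03 and 29.3. Per kilobase COL1A1 and COL3A1 followed them at ranks 3 and 4 of 20, ahead of DES and TIE1. At the other end THY1 had no count, and COL1A2, at rank 19, and PECAM1 were below 1 CPM. Of 20 biliary and other epithelial markers 9 were detected: KRT19 (230, 261 and 178 CPM), VIL1 (346, 405 and 339) and SOX9 (141, 147 and 148) were high, and CFTR, KRT5, TP63 and SFTPC had no count.

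As a sign of how the RNA was selected, 5 of 15 replication-dependent histone genes, whose mRNAs carry no poly(A) tail, were detected, and together they took 0.00287% ± 6.99e-05 of counts. The highest was H1-2 at 12.6, 15.1 and 14.4 CPM. The level was alike in the 3 libraries.

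The spread between replicates exceeded counting error for most genes. Among 17461 rows with at least 30 counts in all, 14305 (81.9%) differed beyond counting noise by a chi-square test against the library totals with Benjamini-Hochberg adjustment. This test compares these libraries, and does not show whether they came from separate cultures. For the 8907 genes at 10 CPM or more, the median coefficient of variation was 12.6%, against 1.86% that counting alone would give, and the median ratio of highest to lowest replicate was 1.27. The biological coefficient of variation by edgeR was 0.287. By programme, the median CV was 8.91% for housekeeping, 9.77% for innate, 11.8% for liver and 16.2% for tumour genes, whose levels differ. At least 2-fold differences were seen in 14 of 147 liver genes (9.52%) and 17 of 121 tumour genes (14.05%), beside 10.5% of all 8907 genes. The liver share was thus near that of all genes.

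**Figure D3:**
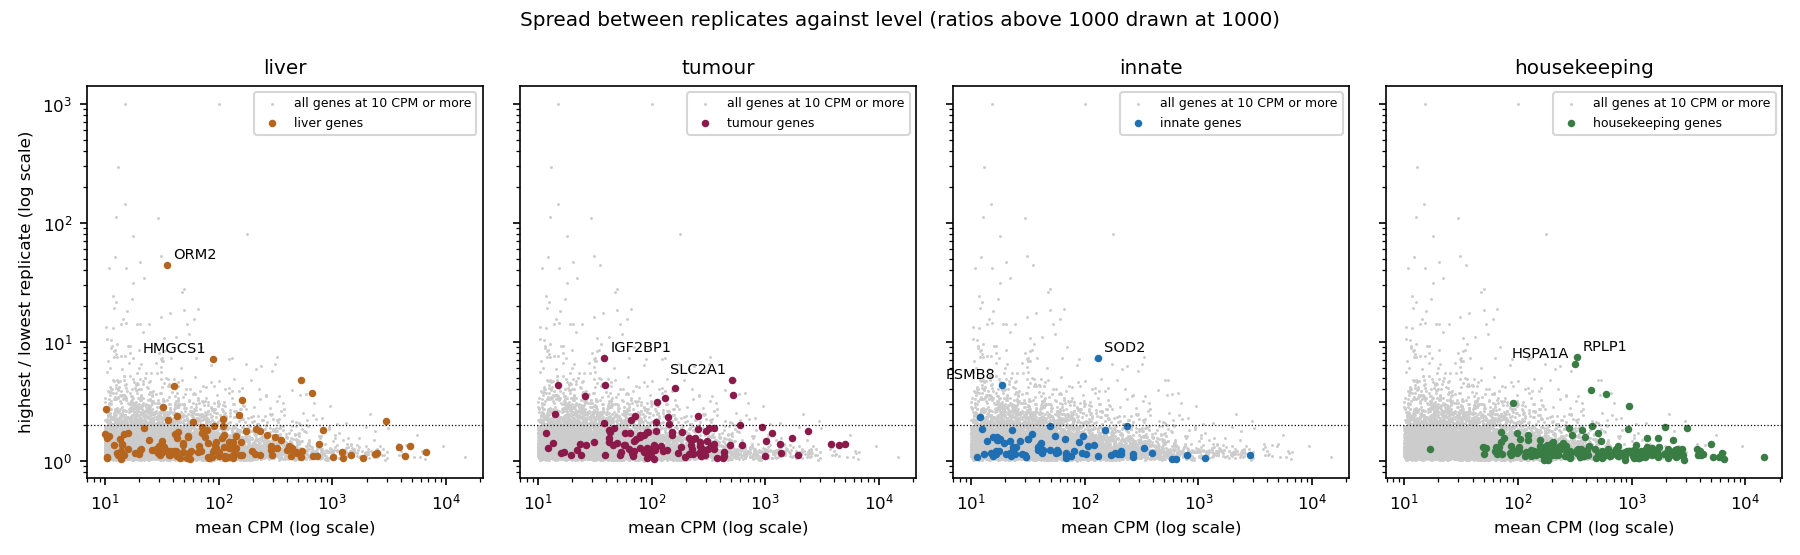
Ratio of highest to lowest replicate (vertical, log axis) against mean CPM (horizontal, log axis) for all 8907 genes at 10 CPM or more (grey) and for each programme's genes (colour), with a dotted line at 2-fold and the 2 widest genes of each programme named. ORM2 leads the liver genes at 44.2-fold, IGF2BP1 the tumour genes at 7.26-fold, SOD2 the innate genes at 7.32-fold and RPLP1 the housekeeping genes at 7.45-fold.

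Replicate 3 stood further from the others. The correlation of log2 CPM across genes, given as a description, was 0.970 between replicates 1 and 2, and 0.955 and 0.953 for the pairs with replicate 3, and 316, 616 and 558 genes differed 2-fold in the pairs 1 and 2, 1 and 3, and 2 and 3. Of the 935 genes with a 2-fold range, replicate 3 was the odd one in 521, higher in 332 and lower in 189. Leaving out any replicate leaves only 2 libraries to compare. The number of such genes was then 302 without replicate 3, 552 without replicate 1 and 612 without replicate 2. The biological coefficient of variation was 0.241, 0.306 and 0.308 in that order. By base composition replicates 1 and 3 lay on opposite sides, with replicate 2 between them. The 2229 genes of lowest GC content (31.8% to 42.9%) had a median log2 deviation of -0.19, -0.05 and 0.23 in replicates 1, 2 and 3, and the 2224 of highest GC content (57.2% to 75.8%) had 0.07, -0.01 and -0.05. The deviations were smaller by length, at 0.06, 0.00 and -0.06 for the 2226 shortest and -0.08, 0.00 and 0.07 for the 2226 longest transcripts.

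Lists followed the libraries in part. Among ribosomal protein genes 32 of 46 were highest in replicate 1 and 37 lowest in replicate 3, among respiratory chain genes 22 and 23 of 31, and among proteasome genes 20 and 22 of 30, beside 35.4% highest in replicate 1 and 42.3% lowest in replicate 3 over all genes at 10 CPM or more. The shifts were small: the median log2 deviation of ribosomal protein genes was 0.07, 0.02 and -0.08, and within bins of length and GC content it was 0.00, 0.02 and -0.02. The other lists kept part of the shift within the bins: proteasome genes went from 0.11, 0.02 and -0.12 to 0.06, 0.02 and -0.08, and respiratory chain genes from 0.08, 0.01 and -0.06 to 0.05, 0.02 and -0.03. Of 12 mitochondrially encoded mRNAs 8 were highest in replicate 3 (37.0% over all genes) and 8 lowest in replicate 2 (23.0%), with median deviations of -0.01, -0.13 and 0.11. Secreted carriers were highest in replicate 3 for 14 of 21 genes, at a median of 0.14 both before and within the bins.

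**Figure D4:**
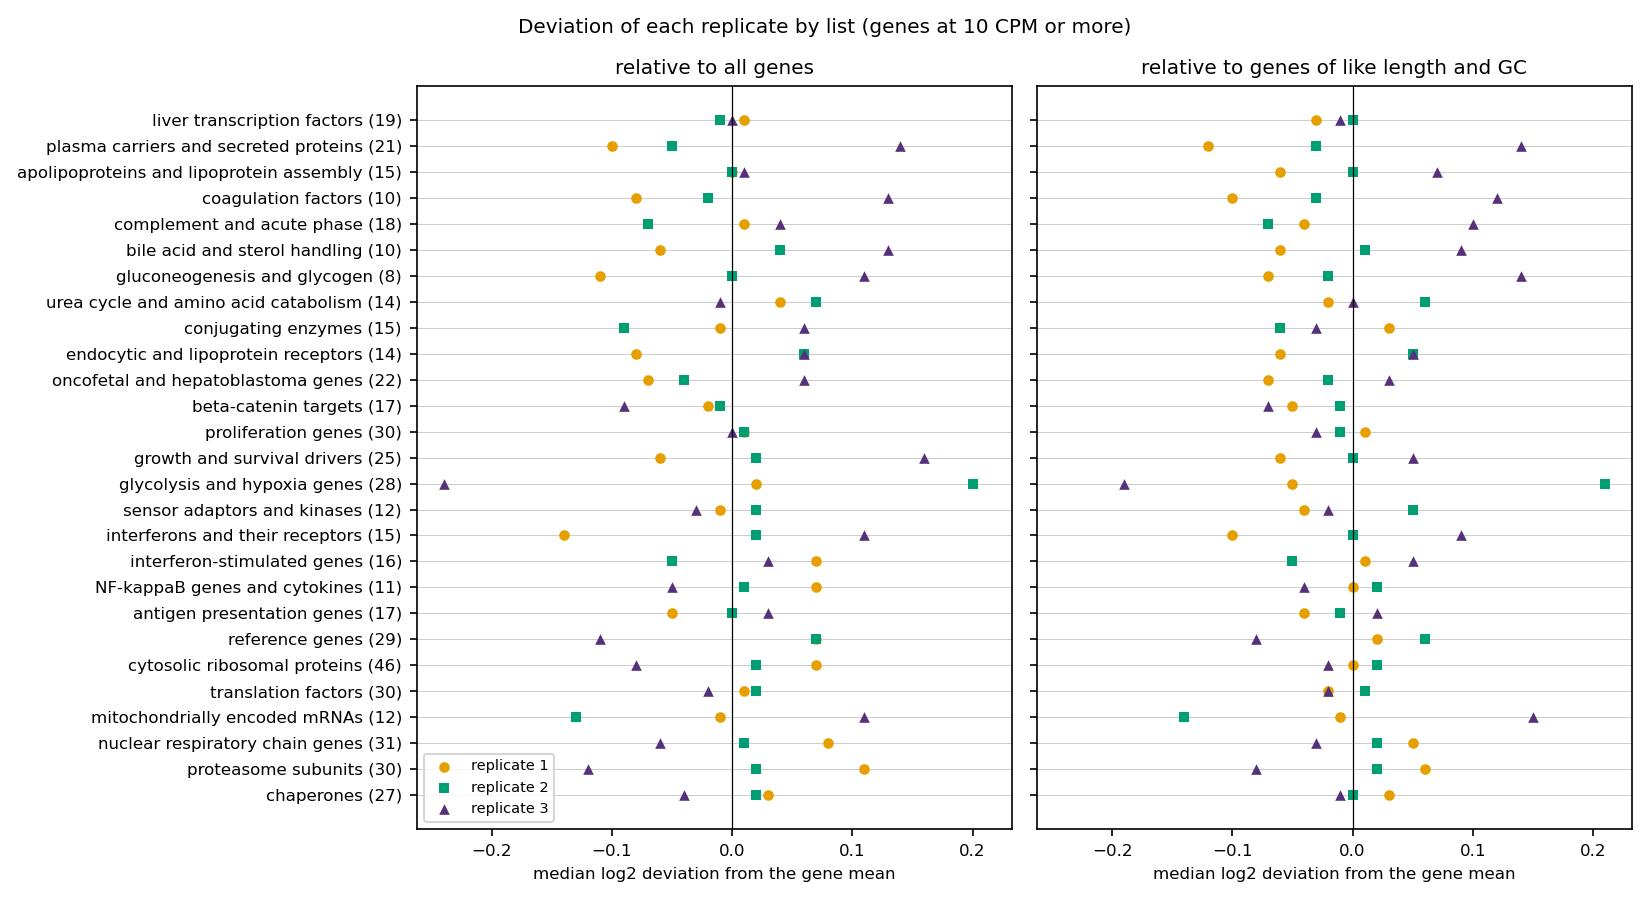
Median log2 deviation of each replicate from the gene means (horizontal) for every list with at least 8 genes at 10 CPM or more (vertical, number of genes in brackets), relative to all genes (left) and to genes of like length and GC content (right). Glycolysis and hypoxia genes lie farthest apart in both panels, at 0.20 and -0.24 for replicates 2 and 3 on the left, and ribosomal protein genes close up on the right.

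At 10 CPM or more, 56 of 8907 genes (0.629%) differed at least 8-fold between replicates. LPGAT1, an acyltransferase, had 0.0137, 45.4 and 0.0392 CPM, SH3PXD2A, a scaffold of invadopodia, 0.219, 38.6 and 0.131, and BEST1, a chloride channel, 0.972, 86.9 and 0.798. These 3 were high in replicate 2 alone, while SNX29 (19.1, 0.171 and 18.7 CPM) was low in it, MEGF6 (49.2, 43.3 and 0.942) was low in replicate 3. USP24 had 0.548, 10.7 and 42.3 CPM. Exons of 16 of the 56 (28.6%) overlapped another gene on the same strand, beside 16.6% of all genes at that level. On either strand the shares were 50% and 50.4%, and the strand setting of the counting is not given in the sources used here. Their median transcript length was 5164 bases beside 3074.

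Some genes of wide range share sequence or exons with a neighbour. In these pairs the sum ranged less widely than the wider gene in some and nearly as widely in others. Beside the other member alone, the sum ranged more widely than ORM1 (1.12-fold), EIF3C (1.72-fold), HSPA1B (1.97-fold) and TMED7-TICAM2 (2.20-fold). It ranged less widely than EIF4A1 and APOC2 (2.42-fold). SENP3-EIF4A1, a readthrough of 2 neighbours, had 0, 301 and 0 CPM while EIF4A1 had 1325, 464 and 1064, and their sum ranged over 1.73-fold instead of 2.85-fold for EIF4A1. ORM2 had 2.64, 2.26 and 99.9 CPM beside its near copy ORM1 at 166, 166 and 149, and the sum ranged over 1.48-fold. APOC4-APOC2 had 66.1, 74.5 and 2.84 CPM beside APOC2 at 135, 92.1 and 223, with a sum ranging over 1.35-fold. EIF3CL had 44.3, 6.04 and 483 CPM beside EIF3C at 355, 611 and 567, and there the sum still ranged over 2.63-fold. TMED7, a protein of transport vesicles, had 9.63, 24.7 and 148 CPM (15.4-fold) beside its readthrough TMED7-TICAM2 at 3.22, 3.79 and 7.07, and their sum ranged over 12.1-fold. The division of reads within each of these pairs is uncertain. HSPA1A and its near copy HSPA1B (466, 293 and 578 CPM) were both lowest in replicate 2, and their sum ranged over 2.76-fold.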

How the data were processed

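RNA was measured in 3 untransfected HepG2 libraries of 15. The authors deposited their raw counts as a single matrix with 1 row per gene. Per the submitters' processing notes, the tools were HISAT2, HTSeq (no version for either), R 4.4.2 and DESeq2 1.46.0, on GRCh38. How overlapping genes were counted, which strand setting and annotation release were used, and how the matrix was filtered is not given in the sources used here. Columns were matched to samples by the column names in the labels, and replicate numbers came from the titles.

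CPM was computed from the deposited counts with library totals of 73011663 to 76476960. At 10 CPM, a gene had at least 730 counts. The 1330 rows that share a symbol were kept apart, and for a listed gene present in 2 rows the row with more counts was used. Gene positions, transcript lengths, GC content and exon overlaps came from GENCODE release 29 on GRCh38, which matched 36737 rows by symbol and 4571 by identifier. Promoters came from RefSeq. A total of 824 genes in 33 lists was examined, and GSTT1 was not analysed. Some listed genes are not reported here by name. This group and the gene lists were picked for description with earlier results of these data known.

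In each list the text dwells on the up to 5 highest genes per kilobase, up to 5 below 1 CPM and the 1 of widest range at 10 CPM or more. Other list members may be named. Outside the lists it names genes among the 15 highest per kilobase, the 10 highest in CPM and the 10 of widest range. Genes of near-copy or overlapping pairs, isoform pairs compared with each other, and the genes that depart from the order of the glycolysis list were chosen after their values were seen. The bins of length and GC content were likewise chosen after seeing the data.

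No condition was compared. Calculations used Python 3.11.15, SciPy 1.17.1 and, in R 4.3.3, edgeR 4.0.16 (intercept only, TMM factors, filterByExpr) and DESeq2 1.42.0 size factors. The chi-square test and the estimate of the biological coefficient of variation were tested on simulated data. Alternatives were other scalings, level limits, transcript lengths, row sets and leaving out each replicate.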

Additional observations from a re-analysis of the deposited data

How the results depend on the processing

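No paired analysis was possible because a single group was described and its values come from no test between groups. The number of genes with a 2-fold range was 935 of 8907 at 10 CPM or more, 1986 of 13763 with a limit of 1 CPM, 267 of 3653 with a limit of 50 CPM, and 478 of 4415 among genes whose exons overlap no other gene, an alternative added after seeing the data. Leaving out 1 replicate gave 302 to 612, lowest without replicate 3, where only 2 libraries are compared. The median level without 1 replicate ran from 25.2 to 26.4 CPM for liver genes and from 6.38 to 6.89 CPM for innate genes. With mitochondrially encoded genes left out of the denominator, the share of counts was 1.19% for innate, 18.2% for housekeeping (whose list then also loses its mitochondrial members) and 0.00298% for histone genes. Of the 15 highest genes per kilobase, 8 were among the 15 highest by coding length, also added after seeing the data, and 11 by merged exons. MT-RNR2 and MT-TC, which are among the 15, have no coding sequence and could not be ranked by coding length. The number detected ran from 10536 at a limit of 5 CPM to 15032 at 0.5 CPM. TMM and DESeq2 size factors moved the count of 2-fold ranges to 952 and 969. The biological coefficient of variation ran from 0.241 to 0.361 over its alternatives. Depth limits statements on genes below 0.0411 CPM, which cannot be told from 0.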

Other observations

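Outside the gene lists, the detected part of the matrix was almost wholly protein-coding: these genes held 97.6% of counts, and 12719 of 19400 were detected. Of 2848 rows annotated as lincRNA, 224 were detected (7.87%), as were 288 of 2007 antisense genes (14.4%) and 143 of 6203 processed pseudogenes (2.31%). Together these 3 classes held under 1% of counts, at 0.206%, 0.187% and 0.298%. None of 600 snoRNA rows and none of 1896 snRNA rows was detected at 1 CPM after poly(A) selection, whereas 15 of 22 mitochondrial tRNA genes were. MT-TC, the mitochondrial tRNA for cysteine, had 302, 267 and 294 CPM and was among the 15 highest genes per kilobase. MT-RNR2, the large mitochondrial ribosomal RNA, had 8100, 9385 and 10680 CPM. The 10 most counted genes held 7.12% ± 0.152 of each library, the first 100 held 26.7% ± 0.752 and the first 1000 held 60.7% ± 0.722 (SD, n = 3).

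NEAT1, the noncoding RNA that builds paraspeckles in the nucleus, had 3.40, 47.6 and 22.8 CPM. TGM2, tissue transglutaminase, had 85.5, 3.07 and 61.4 CPM, TLN1, the integrin adaptor talin, 26.4, 8.64 and 122, and SKI, a repressor of TGF-beta signalling, 85.1, 7.29 and 72.6. All 4 belong to the 56 genes with an 8-fold range, and were named after their values were seen. TGM2, TLN1 and SKI were lowest in replicate 2, in which NEAT1 was highest. Replicate 2 was the odd library in 24 of the 56 genes (7 high, 17 low), replicate 3 in 18 and replicate 1 in 14.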
